A study of Rattus norvegicus with 24 samples.

Results

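The comparison described here set 3 libraries labelled as the α1ACT line of PC12 cells at 24 h against 3 libraries labelled as the same line at 6 h, 6 of the 24 libraries of the series. They were chosen by sample title, and each table of counts was matched to its sample by accession. PC12 is a rat line from a pheochromocytoma, a tumour of the adrenal medulla, and keeps many traits of chromaffin cells. α1ACT is a carboxy-terminal protein encoded within the calcium channel gene CACNA1A, a nuclear protein that regulates transcription. Per the labels, 1 stable PC12 line expressed α1ACT from the pcDNA3 plasmid and the other carried the empty plasmid. Both were grown in the same medium with horse and bovine serum, with no treatment, and each has 3 libraries at every labelled time (6 h, 24 h, 3 d and 10 d). What the times are counted from is not stated, and each line stands for 1 stable transfection.

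The deposited file names give another reading of the same 6 libraries. Each table carries a line, a time and a replicate number in its name, and in 18 of 24 cases the line or time is not that of the title. The libraries labelled α1ACT at 24 h have tables named for the vector line at 10 d. The libraries labelled α1ACT at 6 h have tables named for the vector line at 24 h. By the labels the comparison is therefore 24 h over 6 h in the α1ACT line, and by the file names it is 10 d over 24 h in the vector line. In both readings the 6 libraries come from 1 line and the group given first is the later one. Other groups are used below only to show where the change differs. These are the libraries labelled α1ACT at 10 d and 3 d, whose tables are named for the α1ACT line at 10 d and 24 h, and those labelled vector at 24 h and 6 h, whose tables are named for the vector line at 3 d and 6 h. Groups are called by their labels, and "24 h" and "6 h" without a line mean the labelled α1ACT libraries.

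Counts on genes were 10427505 to 12577776 per library at 24 h and 11603721 to 11893124 at 6 h, within 8679560 to 14486248 over all 24 libraries. A floor of 3 counts stood at 0.239 to 0.288 CPM (counts scaled by library size) at 24 h and 0.252 to 0.259 CPM at 6 h, and covers counting error only. Of 10 chromaffin markers 9 were found and tested. Their summed level was 24613 to 28611 CPM at 24 h and 19929 to 24718 CPM at 6 h. Markers of other cell types were measured too. Immune markers summed to 1.51 to 2.55 CPM at 24 h and 2.08 to 2.63 CPM at 6 h, with Ptprc and Itgam at 0. Fibroblast markers summed to 787 to 797 CPM at 24 h and 703 to 758 CPM at 6 h, nearly all of it Thy1, with Col1a1, Col1a2, Lum, Pdgfrb and Fap at 0. Schwann and glial markers, led by Mbp, summed to 58.2 to 61.2 CPM at 24 h and 64.5 to 67.2 CPM at 6 h, with Sox10 and Cdh19 at 0. Epithelial markers, led by Krt8, summed to 865 to 889 CPM at 24 h and 1133 to 1308 CPM at 6 h. Within the 24 h group replicate 2 differed most from the others, at a chi-square of 5.46 and 8.46 per degree of freedom from replicates 1 and 3, which stood 5.28 from each other. At 6 h replicate 2 stood apart too, at 4.69 and 5.59 from replicates 1 and 3, which stood 2.97 from each other. In all 8 labelled groups replicates 1 and 3 were the closest pair. Reads outside annotated genes were 51.6% ± 0.589 at 24 h and 49.6% ± 0.587 at 6 h (SD, n = 3 each), shares that leave out non-unique alignments.

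Several of the largest rises were genes of the integrated stress response, by which cells meet a shortage of amino acids or a load of misfolded protein. Kinases that sense such states phosphorylate the initiation factor eIF2α, which slows translation in general and favours that of ATF4. ATF4, with C/EBP partners and CHOP (gene Ddit3), then binds C/EBP-ATF elements and turns on genes that make, import and load amino acids. Misfolded protein in the endoplasmic reticulum also works through other factors, among them ATF6, which acts with NF-Y at an ER stress element to raise chaperones. The promoters below show both elements in genes described further on, picked as examples with their values known. Promoter sequences are those of RefSeq on build GRCr8, from 250 bases before to 50 after each gene's start, 5′ to 3′ on the strand of the gene. Capitals mark the C/EBP-ATF element, searched as TGATGNAA on both strands, in the first 5 sequences, which belong to genes that rose. They mark the ER stress element, searched as CCAAT, 9 bases of any kind and CCACG on both strands, in the last 2, which belong to chaperone genes that fell.
Chac1: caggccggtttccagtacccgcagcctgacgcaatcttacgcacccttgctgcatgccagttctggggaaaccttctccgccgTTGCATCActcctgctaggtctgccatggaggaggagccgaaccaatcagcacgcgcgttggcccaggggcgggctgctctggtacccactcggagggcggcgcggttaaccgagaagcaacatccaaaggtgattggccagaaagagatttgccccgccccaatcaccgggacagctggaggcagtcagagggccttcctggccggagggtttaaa
Trib3: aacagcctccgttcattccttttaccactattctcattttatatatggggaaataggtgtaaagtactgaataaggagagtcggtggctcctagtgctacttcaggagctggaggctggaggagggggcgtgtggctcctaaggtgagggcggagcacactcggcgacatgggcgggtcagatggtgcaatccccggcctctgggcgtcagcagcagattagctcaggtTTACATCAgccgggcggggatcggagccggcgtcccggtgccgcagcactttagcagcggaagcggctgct
Cars: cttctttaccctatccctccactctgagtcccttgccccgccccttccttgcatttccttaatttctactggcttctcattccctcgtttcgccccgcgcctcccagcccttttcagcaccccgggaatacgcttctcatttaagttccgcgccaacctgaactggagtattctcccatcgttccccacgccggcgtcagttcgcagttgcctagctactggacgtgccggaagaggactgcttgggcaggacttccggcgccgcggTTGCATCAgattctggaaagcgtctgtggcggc
Slc1a4: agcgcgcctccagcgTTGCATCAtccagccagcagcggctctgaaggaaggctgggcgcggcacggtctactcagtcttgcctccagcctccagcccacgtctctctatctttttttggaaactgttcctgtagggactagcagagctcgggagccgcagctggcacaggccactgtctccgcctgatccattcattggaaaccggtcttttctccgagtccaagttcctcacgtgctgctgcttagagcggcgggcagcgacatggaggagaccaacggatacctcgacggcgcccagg
Herpud1: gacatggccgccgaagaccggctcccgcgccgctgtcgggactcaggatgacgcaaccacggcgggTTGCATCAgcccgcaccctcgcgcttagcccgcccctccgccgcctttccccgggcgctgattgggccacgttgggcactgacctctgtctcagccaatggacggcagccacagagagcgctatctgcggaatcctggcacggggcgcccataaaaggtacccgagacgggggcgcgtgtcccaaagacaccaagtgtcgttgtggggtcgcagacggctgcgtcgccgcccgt
Hsp90b1: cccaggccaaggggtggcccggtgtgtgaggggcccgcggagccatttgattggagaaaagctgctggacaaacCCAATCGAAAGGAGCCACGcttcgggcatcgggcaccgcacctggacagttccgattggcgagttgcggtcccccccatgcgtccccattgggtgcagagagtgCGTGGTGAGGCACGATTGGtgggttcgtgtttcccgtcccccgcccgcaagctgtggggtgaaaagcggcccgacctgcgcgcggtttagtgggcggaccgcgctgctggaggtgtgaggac
Calr: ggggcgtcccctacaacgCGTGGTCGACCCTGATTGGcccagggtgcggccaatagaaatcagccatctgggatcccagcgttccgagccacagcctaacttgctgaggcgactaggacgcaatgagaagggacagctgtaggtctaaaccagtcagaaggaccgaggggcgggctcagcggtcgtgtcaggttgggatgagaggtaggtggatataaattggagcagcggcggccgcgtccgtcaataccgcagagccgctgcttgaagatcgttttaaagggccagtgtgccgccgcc

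These windows lie at chr3:126795881-126796180 (+ strand), chr3:161275484-161275783 (- strand), chr1:208225320-208225619 (- strand), chr14:98761513-98761812 (- strand), chr19:10614658-10614957 (- strand), chr7:23012244-23012543 (- strand) and chr19:40213117-40213416 (+ strand) of GRCr8. As printed, the element began 167 bases before the start in Chac1, 21 in Trib3, 235 in Slc1a4 and 184 in Herpud1, and it lay after the start in Cars. The ER stress element began 176 and 72 bases before the start in Hsp90b1 and 232 in Calr. Of the 66 tested genes of the 4 lists described next (stress response core, amino acid synthesis, amino acid transport and aminoacyl-tRNA synthetases), 57 matched a RefSeq promoter and 16 of these (28.1%) held the C/EBP-ATF element. The element stood in 2.05% of the 8105 promoters matched to tested genes and in 3.98% of all 33469 promoters of this length. Of the 16 genes with it, 15 rose and none fell at 24 h over 6 h. Most tested members of the 4 lists rose, 15 of 19, 12 of 15, 7 of 12 and 16 of 20 in the order given. Whether the element bears on the rise was not tested. No promoter of the 4 lists held the ER stress element, which stood in 9 of 25 matched promoters of the list of endoplasmic reticulum genes, in 0.197% of promoters of tested genes and in 0.0657% of all. Of those 9 genes none rose and 4 fell. In the whole list 8 of 33 tested genes rose and 11 fell, and of all tested genes 21.7% rose and 22.4% fell. Whether this element bears on a fall was not tested either. Hspa5, not printed above, held the element 43 bases before the start and did not pass. The letters describe these windows only, and say nothing of binding.

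At 24 h over 6 h, 4409 of 9994 tested genes changed by edgeR's quasi-likelihood test (Benjamini-Hochberg adjusted p under 0.05). In all 2170 rose (21.7% of those tested) and 2239 fell (22.4%), and 314 of them changed at least 2-fold, 111 upward and 203 downward. The list counts below stand against these shares of all tested genes. Below, "rose" and "fell" are used only of genes that passed this test, log2 fold changes are 24 h over 6 h ± SE, and values are CPM after TMM scaling. Such values are not per length, so levels are not compared between genes. The median over all tested genes was 0.00 on the log2 scale. In bulk RNA, fewer cells of a kind and less RNA per cell cannot be told apart. The replicates are called biological, but separate cultures are not mentioned, and the p-values cover only the spread among these libraries.

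The core of the integrated stress response was higher at 24 h. Of 19 tested genes of this list 15 rose and 2 fell, with a median log2 fold change of 1.54. The 2 that fell, named after their values were seen, were Eif2ak4, the kinase GCN2 that senses uncharged tRNA (-0.44 ± 0.06), and Ndrg1, a stress-responsive gene (-1.03 ± 0.28). Chac1, which degrades glutathione, had 80.3, 79.3 and 74.9 CPM in the 24 h libraries, against 4.68, 5.75 and 5.06 CPM at 6 h, a 15.1-fold rise (3.92 ± 0.15, edgeR adjusted p = 4.77e-16). Ddit3, the gene of CHOP, had 193, 159 and 213 CPM at 24 h, against 30.0, 31.2 and 30.1 CPM at 6 h (2.63 ± 0.10, edgeR adjusted p = 2.48e-16, the smallest of all genes). The gap between the groups was wide in both genes, but lack of overlap was a condition for naming the largest rises. Trib3, a pseudokinase that restrains ATF4 and CHOP, had 243, 209 and 229 CPM at 24 h, against 51.9, 48.6 and 48.5 CPM at 6 h (2.19 ± 0.10). Atf4 itself had 963, 849 and 914 CPM at 24 h, against 272, 353 and 252 CPM at 6 h, a 3.11-fold rise (1.64 ± 0.10). RNA level is only a part of its control, since its translation is regulated. Eif4ebp1, an inhibitor of cap-dependent translation, rose 4.01-fold, and Sesn2, which restrains mTORC1 when leucine is short, rose 2.91-fold. Cebpg, a partner of ATF4, had 151, 127 and 140.4 CPM at 24 h, against 70.9, 67.7 and 71.5 CPM at 6 h (0.99 ± 0.07).

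Genes of secreted products rose as well, and their tie to this response was not tested. Stc2, a secreted glycoprotein, had 357, 248 and 369.7 CPM at 24 h, against 57.6, 71.6 and 56.2 CPM at 6 h (2.40 ± 0.14), with the lowest 24 h value in replicate 2. Adm2, a peptide of the calcitonin family, rose 8.10-fold, at 39.7, 28.1 and 36.7 CPM in the 24 h libraries and 4.27, 5.58 and 3.04 CPM in the 6 h libraries. Inhbe, the inhibin beta E subunit, was nearly undetected at 6 h. It had 191 counts over the 24 h libraries and 4 over the 6 h libraries, a ratio of 50.2 scaled for depth (exact 95% counting interval 19.3 to 186). Large rises were also seen in Casp4, an inflammatory caspase (3.33 ± 0.32), Trim66 (3.45 ± 0.43), the starch-binding protein gene Stbd1 (2.04 ± 0.17) and the kinesin Kif21b (2.41 ± 0.48). Lack of overlap between the groups was a condition for naming the genes of this paragraph as largest rises. In each of them the lowest 24 h value was that of replicate 2.

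**Figure D1:**
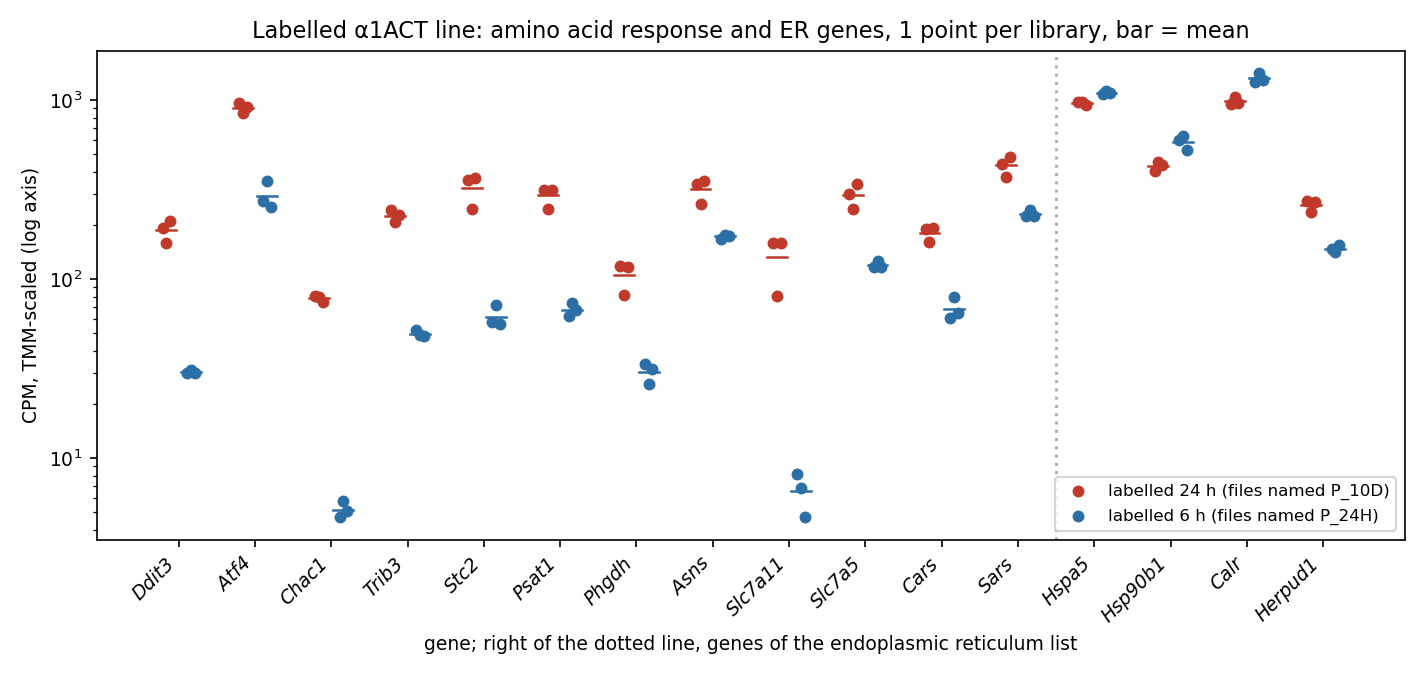
CPM after TMM scaling (log axis) of 16 genes in the 3 labelled 24 h libraries (left of each pair, red) and the 3 labelled 6 h libraries (right, blue), with 1 point per library and a bar at the mean. The 12 genes left of the dotted line are higher in every 24 h library than in any 6 h library. For those among the 15 largest rises, lack of overlap was a condition of being named. Hsp90b1, Calr and Hspa5 of the endoplasmic reticulum list are lower and Herpud1 is higher.

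Enzymes that make serine, glycine and other amino acids rose with the core genes. Of 15 tested members 12 rose and none fell (1 fell without 24 h replicate 2), and the median was 0.88. Psat1, which makes phosphoserine, had 317, 247 and 317 CPM at 24 h, against 62.2, 73.3 and 67.4 CPM at 6 h, a 4.35-fold rise. Phgdh, the first enzyme of serine synthesis, rose 3.50-fold and Psph, the last, 3.15-fold, so that every step of the pathway was higher. Of the mitochondrial enzymes that carry serine carbons into folates, Mthfd2 had 197, 165 and 192 CPM at 24 h, against 49.6, 58.5 and 50.4 CPM at 6 h (1.81 ± 0.10, edgeR adjusted p = 1.87e-13). Shmt2 rose less (0.75 ± 0.08), and Aldh1l2 rose 3.25-fold. Asns, asparagine synthetase and a classical ATF4 target, had 341, 263 and 354 CPM at 24 h, against 168, 178 and 174 CPM at 6 h (0.88 ± 0.09). Cth, which makes cysteine from cystathionine, was low, at 5.10, 2.80 and 6.54 CPM in the 24 h libraries and 1.07, 1.42 and 1.18 CPM in the 6 h libraries (1.99 ± 0.36). It was named among the largest rises, for which lack of overlap was a condition.

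Amino acid transporters rose in 7 of 12 tested members and fell in 1, with a median of 0.32. Slc7a11, the cystine and glutamate exchanger, had 159, 81.0 and 159.6 CPM at 24 h, against 8.13, 6.83 and 4.72 CPM at 6 h. Its rise of 20.3-fold (4.34 ± 0.27, edgeR adjusted p = 3.57e-12) was as large without 24 h replicate 2, at 4.60. The heavy chain Slc3a2, which pairs with both Slc7a11 and the leucine carrier Slc7a5, had 655, 573 and 648 CPM at 24 h, against 296, 306 and 303 CPM at 6 h (1.05 ± 0.07). Slc7a5 rose 2.46-fold, the neutral amino acid carriers Slc1a4 and Slc1a5 rose 2.28-fold and 2.07-fold, and the arginine and lysine carrier Slc7a1 rose 1.33-fold. The member that fell was Slc6a6, a carrier of taurine, which is not a constituent of proteins. It had 30.3, 39.3 and 37.4 CPM at 24 h, against 68.2, 71.0 and 67.8 CPM at 6 h (-0.95 ± 0.08).

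Aminoacyl-tRNA synthetases, which load amino acids on tRNAs, rose in 16 of 20 tested members, with a median of 0.54. Cars, the cysteine enzyme, had 191, 162 and 194 CPM at 24 h, against 61.0, 79.8 and 64.9 CPM at 6 h (1.41 ± 0.10). The enzymes for serine, asparagine, methionine, isoleucine, alanine, glycine and, in Eprs, glutamate and proline rose by 0.69 (Gars) to 0.90 (Sars) on the log2 scale. For Eprs the 24 h libraries held 934, 707 and 964 CPM, against 489, 514 and 480.5 CPM in the 6 h libraries, again with the lowest 24 h value in replicate 2. Of the 20 enzymes 2 fell, Vars for valine (-0.34 ± 0.04) and Farsa, a subunit of the phenylalanine enzyme (-0.14 ± 0.05), both named after their values were seen. That count was 1 without any of 6 h replicates 1 and 2 and 24 h replicates 1 and 3. The C/EBP-ATF element shown above stood in 7 of 17 matched promoters of this list, all of them genes that rose.

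Chaperones and other genes of the endoplasmic reticulum had no common direction. Of 33 tested genes of the unfolded protein response and of degradation from this compartment 8 rose and 11 fell, with a median of 0.01. Hsp90b1, the endoplasmic reticulum form of the HSP90 chaperone, had 400.3, 451 and 437 CPM at 24 h, against 599.7, 635 and 525 CPM at 6 h (-0.45 ± 0.09, edgeR adjusted p = 2.12e-04). Calr, the lectin chaperone calreticulin, had 948, 1047 and 965 CPM at 24 h, against 1258, 1421 and 1302 CPM at 6 h (-0.43 ± 0.07). Hyou1, a chaperone of the HSP110 family, fell 1.27-fold, and Syvn1, the ubiquitin ligase of endoplasmic reticulum degradation, 1.97-fold. Each of these genes was lower in every 24 h library than in any 6 h library. Hspa5, the chaperone BiP and a standard readout of endoplasmic reticulum stress, was named after its values were seen. It had 984, 979 and 945 CPM at 24 h, against 1081, 1126 and 1093 CPM at 6 h, and did not pass (-0.18 ± 0.09, 95% interval -0.37 to 0.01, edgeR adjusted p = 0.118). Herpud1, which serves degradation and holds a C/EBP-ATF element, had 275, 236 and 272 CPM at 24 h, against 147, 141 and 156 CPM at 6 h (0.82 ± 0.07). Vimp and Dnajb9 of this list also rose (0.35 ± 0.07 and 0.31 ± 0.07).

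Heat shock genes and targets of the oxidant sensor NRF2 fell more often than they rose. Of 19 heat shock genes of the cytosol and mitochondria 10 fell and 6 rose (median -0.22). Hspb1, the small heat shock protein HSP27, had 49.1, 42.9 and 45.4 CPM at 24 h, against 132, 127 and 118 CPM at 6 h (-1.45 ± 0.12), and the co-chaperone Bag3 fell 2.53-fold. The inducible Hspa1b was low, at 0.967, 0.386 and 0.956 CPM in the 24 h libraries and 3.69, 2.58 and 2.95 CPM in the 6 h libraries (-1.96 ± 0.32), and shares near-identical sequence with Hspa1a, so its count is uncertain. The member that rose with the smallest p was Hspa9, the mitochondrial HSP70 (0.48 ± 0.09). Of 20 NRF2 targets and regulators 9 fell and 1 rose (median -0.13). Hmox1, heme oxygenase, had 156, 129.7 and 214 CPM at 24 h, against 474, 422 and 452 CPM at 6 h (-1.43 ± 0.12), and the quinone reductase Nqo1 fell 1.43-fold. The gene that rose was Nfe2l2, which encodes NRF2 itself (0.41 ± 0.08). Slc7a11, which rose in the transporter list, is known as a target of both ATF4 and NRF2.

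**Figure D2:**
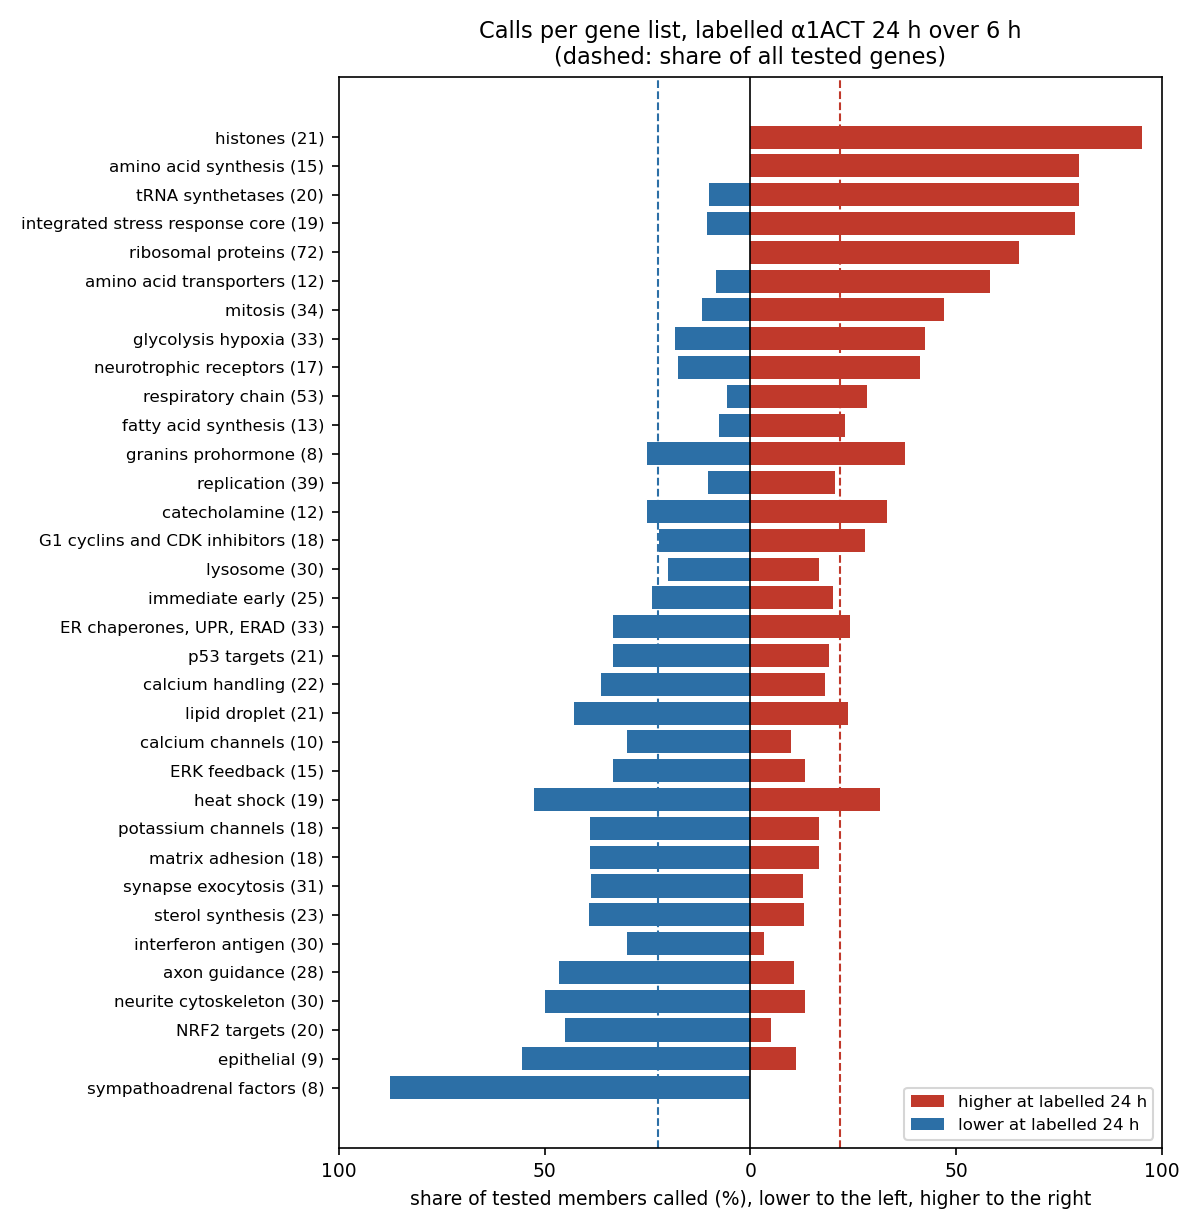
Share of tested members (horizontal axis, %) that rose (red, to the right) or fell (blue, to the left) at the labelled 24 h over 6 h, for each gene list with at least 8 tested members, whose number is in parentheses. Dashed lines are the shares of all tested genes, 21.7% higher and 22.4% lower. Histones, amino acid synthesis, tRNA synthetases and the stress response core stand far to the right of them, and the sympathoadrenal factors far to the left.

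Histone genes were higher at 24 h almost throughout. Of 21 tested members 20 rose and none fell, with a median of 1.07, and 17 rose without 24 h replicate 2. Hist2h4, a core histone H4 gene, had 755, 980.4 and 724 CPM at 24 h, against 267, 318 and 312 CPM at 6 h (1.46 ± 0.13, edgeR adjusted p = 1.61e-09). The linker histone gene Hist1h1d had 1101, 1573 and 1148 CPM at 24 h, against 579.5, 773 and 552 CPM at 6 h (2.01-fold, with a log2 fold change of 0.82 without 24 h replicate 2). Replicate 2 was the highest library in both groups for both genes, and the groups did not overlap. H1f0, a linker histone made outside S phase whose messenger is polyadenylated, rose less (0.58 ± 0.05). The libraries were made from total RNA, so messengers without a poly(A) tail are counted too. Near-identical histone genes can share reads, which makes single members uncertain.

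Genes of cell division and DNA synthesis had smaller and mixed changes. Of 34 mitosis genes 16 rose and 4 fell (median 0.18). Of 39 replication genes 8 rose and 4 fell (median 0.06), a rising share near the 21.7% of all tested genes and a falling share below their 22.4%. The counts of both lists rest on 24 h replicate 2. Without it 10 mitosis genes rose and 7 fell, and 4 replication genes rose and 11 fell, and 13 replication genes rose without 24 h replicate 3. Nusap1, a spindle protein, had 296, 315 and 246 CPM at 24 h, against 165, 178 and 167 CPM at 6 h (0.75 ± 0.10), and the checkpoint kinase gene Bub1 had 461, 504 and 394 CPM at 24 h, against 340.3, 354 and 346 CPM at 6 h (0.38 ± 0.07). The mitotic kinase gene Plk1 went the other way, at 34.5, 47.6 and 36.3 CPM in the 24 h libraries and 63.0, 60.2 and 60.3 CPM in the 6 h libraries (-0.64 ± 0.10). In the replication list the primase gene Prim1 rose 1.58-fold. In contrast the helicase subunit Mcm7, the flap endonuclease Fen1 and thymidylate synthase Tyms fell 1.40-fold, 1.40-fold and 1.46-fold. Among 18 tested G1 cyclins, their kinases and inhibitors 5 rose and 4 fell, shares near those of all tested genes. Between 2 and 3 rose without 6 h replicate 2 or 3 or 24 h replicate 1 or 2, and 2 fell without 6 h replicate 3 or 24 h replicate 1 or 3. E2f1 rose (0.51 ± 0.09) and the cyclin D kinase gene Cdk6 fell (-0.48 ± 0.07).

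Ribosomal protein genes rose in 47 of 72 tested members and fell in none, with a median of 0.30. Rplp0 had 2096, 1943 and 2212 CPM at 24 h, against 1489, 1605 and 1549.6 CPM at 6 h (0.43 ± 0.06), and Rps24 rose 1.48-fold. With unscaled library sizes 44 of them rose. Processed copies of these genes can share their reads. Of 53 genes of the respiratory chain 15 rose and 3 fell (median 0.08). The rising count was 9 without 6 h replicate 3 or 24 h replicate 1, and the falling count was 1 without 6 h replicate 2 or 24 h replicate 3. Of 33 genes of glycolysis and the hypoxia response 14 rose and 6 fell (median 0.11). In all 8 rose without 6 h replicate 3 and 9 without 24 h replicate 3. Within that list Pdk3, which holds back pyruvate oxidation, had 290.2, 291 and 346 CPM at 24 h, against 152, 139 and 139 CPM at 6 h (1.11 ± 0.06), while the secreted peptide gene Adm fell (-0.63 ± 0.08).

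Lipid genes were mixed. Of 23 sterol synthesis genes 9 fell and 3 rose (median -0.18), with 5 falling without 6 h replicate 2, 24 h replicate 1 or 24 h replicate 3. The regulator Srebf2 had 294, 317 and 318 CPM at 24 h, against 418, 419 and 444 CPM at 6 h (-0.46 ± 0.05). The enzyme genes Pmvk and Fdps rose (0.50 ± 0.07 and 0.41 ± 0.07). Of 13 genes of fatty acid synthesis 3 rose, a share near that of all tested genes, and 1 fell. The rising count was 1 in several reduced sets (without 6 h replicate 1 or 3, or without 24 h replicate 2). Fasn, the synthase itself, had 931, 1183 and 1042 CPM at 24 h, against 1892, 1879 and 1952 CPM at 6 h (-0.86 ± 0.06). Scd1, the desaturase, was more spread, at 385, 466 and 826 CPM in the 24 h libraries and 311, 326 and 229 CPM in the 6 h libraries (0.95 ± 0.19, and 0.56 without 24 h replicate 3). Of 21 genes of lipid droplets and fatty acid oxidation 9 fell and 5 rose, with 3 rising without 6 h replicate 2 or 24 h replicate 1. The lipase inhibitor G0s2 had 435, 413 and 476 CPM at 24 h, against 234, 258 and 222 CPM at 6 h (0.89 ± 0.09).

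The largest falls by the fixed criteria included genes of several kinds. Lgals3, galectin-3, had 7.03, 7.73 and 9.56 CPM at 24 h, against 126, 126 and 135 CPM at 6 h, a 15.8-fold fall (-3.98 ± 0.21, edgeR adjusted p = 1.87e-13). Sprr1a, which is induced in regenerating neurons, had 3.25, 2.90 and 2.31 CPM at 24 h, against 37.4, 26.8 and 40.7 CPM at 6 h (-3.64 ± 0.23). The 24 h values lay far below the 6 h values in both genes, but lack of overlap was a condition for naming the largest falls. Plec, the cytoskeletal linker plectin, had 122, 125 and 152 CPM at 24 h, against 576, 490.0 and 536 CPM at 6 h (4.01-fold lower, edgeR adjusted p = 1.46e-13). Tln1, talin, which couples integrins to actin, had 114, 124 and 125 CPM at 24 h, against 241, 229 and 239 CPM at 6 h (-0.96 ± 0.05). S100a4, a calcium-binding protein of motile cells, fell 5.24-fold and the receptor Notch2 3.15-fold. Dcn, a matrix proteoglycan and also a fibroblast marker, was low in both groups, at 0.791, 0.773 and 0.956 CPM in the 24 h libraries and 6.73, 6.91 and 7.34 CPM in the 6 h libraries, and Plekhb1 was at 0.439, 0.386 and 0.398 CPM at 24 h and 6.73, 5.25 and 4.89 CPM at 6 h. Of 18 tested matrix and adhesion genes 7 fell and 3 rose (median -0.68). The laminins Lama5 and Lamc1 fell 2.33-fold and 1.70-fold, whereas Tgfbi rose 3.78-fold. Col4a1 had 19 counts over the 24 h libraries and 1 over the 6 h libraries (ratio 20.0, exact 95% counting interval 3.18 to 830).

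Genes of the neuronal cytoskeleton were mostly lower. Of 30 tested members 15 fell and 4 rose (median -0.26). Map1b, a microtubule-associated protein of growing axons, had 888, 931 and 1111 CPM at 24 h, against 1944, 1779 and 1793 CPM at 6 h (-0.91 ± 0.08). Its relatives Map1a and Map1s fell 2.39-fold and 2.49-fold, Map1s with the smallest p of all genes that fell (edgeR adjusted p = 1.17e-14). The neurofilament gene Nefm had 32.6, 31.1 and 32.4 CPM at 24 h, against 81.4, 55.4 and 76.2 CPM at 6 h (-1.15 ± 0.11). Peripherin, encoded by Prph, went the other way at 1889, 1798 and 1716 CPM in the 24 h libraries and 1279, 1288 and 1321 CPM in the 6 h libraries (0.47 ± 0.05). Vgf, the precursor of secreted neuropeptides and long known as a gene induced by nerve growth factor in PC12 cells, had 78.4, 103 and 89.7 CPM at 24 h, against 331, 382 and 239 CPM at 6 h (-1.81 ± 0.19).

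Transcription factors of the sympathoadrenal lineage fell in 7 of 8 tested members and rose in none, with a median of -0.63. Phox2a, which drives noradrenergic identity, had 282, 312 and 269 CPM at 24 h, against 494, 455 and 467 CPM at 6 h (-0.71 ± 0.06). Gata2 had 439, 490.1 and 477 CPM at 24 h, against 683, 674 and 667 CPM at 6 h (-0.53 ± 0.06), and Gata3 and Hand1 fell 2.02-fold and 1.56-fold. Hand2 did not pass (-0.16 ± 0.10). Among products of the lineage some genes rose and some fell. Th, tyrosine hydroxylase and the first enzyme of catecholamine synthesis, had 6542, 7104 and 7366 CPM at 24 h, against 5215, 5402 and 4760.1 CPM at 6 h (0.45 ± 0.05, a rise with edgeR adjusted p = 2.46e-07). Of 12 catecholamine genes 4 rose and 3 fell, and Gch1, which makes the cofactor of Th, was among those that fell (-0.63 ± 0.11). Of 8 granin and prohormone genes 3 rose and 2 fell, with Scg2 higher (0.20 ± 0.04) and the amidating enzyme Pam lower (-0.56 ± 0.05). Both lists are small, with falling shares near the 22.4% of all tested genes and rising shares somewhat above their 21.7%.

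Exocytosis, guidance and channel genes were also more often lower than higher. Of 31 synaptic and exocytosis genes 12 fell and 4 rose (median -0.19). Sytl4, granuphilin, which docks dense-core granules, had 152, 134 and 136 CPM at 24 h, against 473, 437 and 498 CPM at 6 h (-1.74 ± 0.09). The priming factors Cadps and Unc13b fell (-0.54 ± 0.07 and -0.63 ± 0.09), and Syt4, a synaptotagmin of dense-core granules, rose (0.70 ± 0.08). Of 28 axon guidance genes 13 fell and 3 rose (median -0.40), with 1 rising without 6 h replicate 2 or 24 h replicate 1. The plexin Plxnb2 had 261, 266 and 301 CPM at 24 h, against 468, 438 and 523 CPM at 6 h (-0.79 ± 0.06), and the slit receptor Robo1 and the netrin receptors Unc5b and Unc5c fell 1.55-fold, 1.68-fold and 1.73-fold. Efnb1, a membrane-bound ephrin, rose (0.61 ± 0.09). Of 18 potassium channel genes 7 fell and 3 rose (median -0.30), with Kcnc4 at 10.5, 12.7 and 10.8 CPM in the 24 h libraries and 35.0, 38.0 and 33.5 CPM in the 6 h libraries (-1.65 ± 0.16).

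Calcium genes and those tied to α1ACT in earlier work were examined for the label. Of 4 genes linked to α1ACT 3 fell and none rose, and 1 rose without 24 h replicate 2. Atp2b2, a calcium pump of the plasma membrane, had 25.0, 25.5 and 24.6 CPM at 24 h, against 40.5, 40.4 and 41.8 CPM at 6 h (-0.71 ± 0.09, edgeR adjusted p = 3.65e-07). Cacna1a had 12.0, 10.1 and 12.8 CPM at 24 h, against 18.1, 16.3 and 14.9 CPM at 6 h (-0.49 ± 0.12, edgeR adjusted p = 0.00187). The tables hold no row for the transgene, and it is not known whether Cacna1a holds its reads, so this gene does not check the label. Grn, progranulin, had 279, 295 and 328 CPM at 24 h, against 319, 335 and 344 CPM at 6 h (-0.15 ± 0.05). The groups overlapped, and the call ended without 6 h replicate 3, 24 h replicate 1 or 24 h replicate 2 and in a fit of the 6 libraries alone. Btg1 did not pass (0.23 ± 0.11). Of 10 calcium channel genes 3 fell and 1 rose, the rise ending without 24 h replicate 1. The N-type channel gene Cacna1b had 73.2, 66.5 and 85.2 CPM at 24 h, against 120.2, 106 and 108 CPM at 6 h (-0.57 ± 0.08), and the L-type gene Cacna1c fell 1.33-fold. Of 22 calcium handling genes 8 fell and 4 rose. Between 4 and 5 fell without 6 h replicate 3 or 1, and 1 to 2 rose without 6 h replicate 2 or 24 h replicate 1. The receptor channel Itpr3 fell 2.52-fold and the endoplasmic reticulum pump Atp2a2 1.33-fold.

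Growth factor genes changed in both directions. Of 17 receptors and adaptors of neurotrophic and growth factors 7 rose and 3 fell, with 4 rising without 24 h replicate 3. Insr and Igf1r, the receptors of insulin and its related growth factor, fell 2.11-fold and 2.24-fold. Insr had 15.3, 16.1 and 17.5 CPM at 24 h, against 35.6, 31.2 and 36.4 CPM at 6 h. Coreceptors for neurotrophic factors of the GDNF family rose, Gfra3 3.81-fold and Gfra2 1.98-fold. Of 25 immediate early genes 6 fell and 5 rose, shares near those of all tested genes, and 3 rose without 6 h replicate 2 or 24 h replicate 1. Jun had 28.2, 32.2 and 27.7 CPM at 24 h, against 67.7, 57.0 and 72.6 CPM at 6 h (-1.17 ± 0.13), while Klf4 and Myc rose 2.15-fold and 1.61-fold. Of 15 feedback inhibitors of ERK signalling 5 fell and 2 rose, with 1 rising without any 1 of the 6 libraries, and 3 falling without 24 h replicate 1. Of 21 p53 targets 7 fell and 4 rose, with 2 rising without 6 h replicate 2. Ccng2 rose (0.35 ± 0.05) and Zmat3 fell (-0.43 ± 0.06). Of 30 interferon and antigen presentation genes 9 fell and 1 rose (median -0.16), with the guanylate-binding protein gene Gbp2 2.40-fold lower and B2m higher (0.37 ± 0.07). Of 30 lysosome genes 6 fell and 5 rose, near the 22.4% and 21.7% of all tested genes, and 8 rose without 24 h replicate 2.

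Lists for other cell types held few tested genes. Of 9 epithelial genes 5 fell and 1 rose, with 3 falling without 6 h replicate 2. Krt8 had 454, 460.4 and 449 CPM at 24 h, against 623, 747 and 651 CPM at 6 h (-0.57 ± 0.10), and Epcam fell 1.68-fold. Of 4 Schwann and glial genes 1 fell, Mbp (-0.25 ± 0.06). Of 2 fibroblast genes Dcn fell and Thy1, which neurons also express, rose (0.14 ± 0.05). The call of Thy1 ended without 6 h replicate 2 or 24 h replicate 1. Of 2 immune genes 1 rose, Lyz2, with 13 counts over the 24 h libraries and 2 over the 6 h libraries (ratio 6.83, exact 95% counting interval 1.55 to 62.4), and that call ended without 6 h replicate 3 or 24 h replicate 1. Without 6 h replicate 2 the other, Cd68, fell. The part of these markers in the results above was not tested.

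The change was next set beside that of the labelled vector line between the same labelled times, a comparison of tables named for the vector line at 3 d and 6 h. It shares no library with the 24 h and 6 h libraries. In that line 3161 genes rose (31.6%) and 2988 fell (29.9%) at 24 h over 6 h. Of the 4409 genes that changed in the α1ACT line 1962 (44.5%) changed in the same direction in the vector line, where they made up 31.9% of the calls, and 1024 changed in opposite directions. Pearson's r between the log2 fold changes was 0.36 across 9994 genes, as a description of genes that are not independent. The difference between the lines, α1ACT minus vector, passed its own edgeR test as positive in 2429 genes (24.3%) and as negative in 2707 (27.1%). By the file names this difference is not one between lines, since all 4 groups would be vector cells at different times.

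Cell division and histone genes separated the labelled lines. Of 34 mitosis genes 33 fell in the vector line, with a median of -1.29, and the difference was positive and passed in all 34. Bub1 averaged 453 ± 55.6 CPM at 24 h and 347 ± 7.10 CPM at 6 h in the α1ACT line, and 192 ± 14.1 CPM at 24 h and 398 ± 5.73 CPM at 6 h in the vector line (SD, n = 3 each). Its difference was 1.43 ± 0.10 (edgeR adjusted p = 2.19e-11). Of 39 replication genes 37 fell in the vector line, and the difference was positive in 37. Histones fell there in 14 of 21 members and rose in 2, and the difference was positive in 18, with a median of 1.75. For Hist2h4 the vector change did not pass (-0.10 ± 0.13), and the difference was 1.56 ± 0.18. The sterol list gave a positive difference in 17 of 23 members. Fdps changed by 0.41 ± 0.07 in the α1ACT line and -1.51 ± 0.07 in the vector line.

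The stress response rose in both lines, and for many members less in the labelled α1ACT line. Of the 19 core genes 16 rose in the vector line, and the difference was negative in 8 and positive in 2. Slc7a11 rose by 4.34 ± 0.27 in the α1ACT and 4.37 ± 0.23 in the vector line (difference -0.02 ± 0.42, 95% interval -0.89 to 0.84). Ddit3 rose by 2.63 ± 0.10 and 2.45 ± 0.09 (difference 0.18 ± 0.13, 95% interval -0.09 to 0.45). Stc2 rose by 2.40 ± 0.14 against 4.15 ± 0.15 in the vector line (difference -1.75 ± 0.20, edgeR adjusted p = 5.96e-08). Among tRNA synthetases the difference was negative in 13 and positive in 3 of 20. Genes of the endoplasmic reticulum list separated the lines further, with 23 of 33 higher and 2 lower in the vector line and a negative difference in 22. Hspa5 changed by -0.18 ± 0.09 in the α1ACT line and rose by 1.36 ± 0.09 in the vector line (difference -1.54 ± 0.13, edgeR adjusted p = 6.75e-10). Syvn1 fell in the α1ACT line and rose by 0.43 ± 0.09 in the vector line (difference -1.41 ± 0.13).

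Among genes that fell in the 24 h libraries, the difference between the labelled lines passed in some and not in others. Lgals3 changed by -3.98 ± 0.21 in the α1ACT line and -3.80 ± 0.20 in the vector line (difference -0.18 ± 0.32, 95% interval -0.84 to 0.48). Plec fell further in the α1ACT line (difference -1.25 ± 0.14), and so did Sytl4 (-1.29 ± 0.13) and Map1s (-1.02 ± 0.08). Irgq, an immunity-related GTPase gene, had 90.9, 92.3 and 89.3 CPM at 24 h, against 195, 179 and 203 CPM at 6 h (-1.08 ± 0.05), and its vector change did not pass (0.09 ± 0.05), with a difference of -1.17 ± 0.07. Of the sympathoadrenal factors 5 of 8 had a negative difference. Gata2 fell in the α1ACT line and rose by 1.05 ± 0.06 in the vector line (difference -1.57 ± 0.09), while Phox2a fell in both (-0.27 ± 0.06 in the vector line, difference -0.44 ± 0.08). All 4 genes linked to α1ACT had a negative difference, of -0.64 (Grn) to -1.08 (Atp2b2) on the log2 scale, with Cacna1a at -0.69 ± 0.17. Of all tested genes 27.1% had a negative difference that passed. By the file names these differences lie between times of the vector line and not between the lines.

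Among the largest differences between the lines, several came mainly from the vector line. Unc5b averaged 158 ± 28.6 CPM at 24 h and 266 ± 20.1 CPM at 6 h in the α1ACT line, and 761 ± 81.5 CPM at 24 h and 138 ± 11.4 CPM at 6 h in the vector line (difference -3.21 ± 0.14). The teneurin Odz4 changed by -1.30 ± 0.29 in the α1ACT and 3.10 ± 0.19 in the vector line (difference -4.40 ± 0.35). Fosl1, an AP-1 subunit, changed by -4.32 ± 0.30 in the vector line, and its α1ACT change of -0.95 ± 0.51 did not pass but did without 24 h replicate 2 (difference 3.38 ± 0.70). For Rgs2, a regulator of G protein signalling, the change was in the α1ACT line. It had 6.33, 3.57 and 9.09 CPM at 24 h, against 1.07, 1.83 and 0.843 CPM at 6 h (2.35 ± 0.38), while the vector change did not pass (-0.85 ± 0.55), for a difference of 3.20 ± 0.68.

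**Figure D3:**
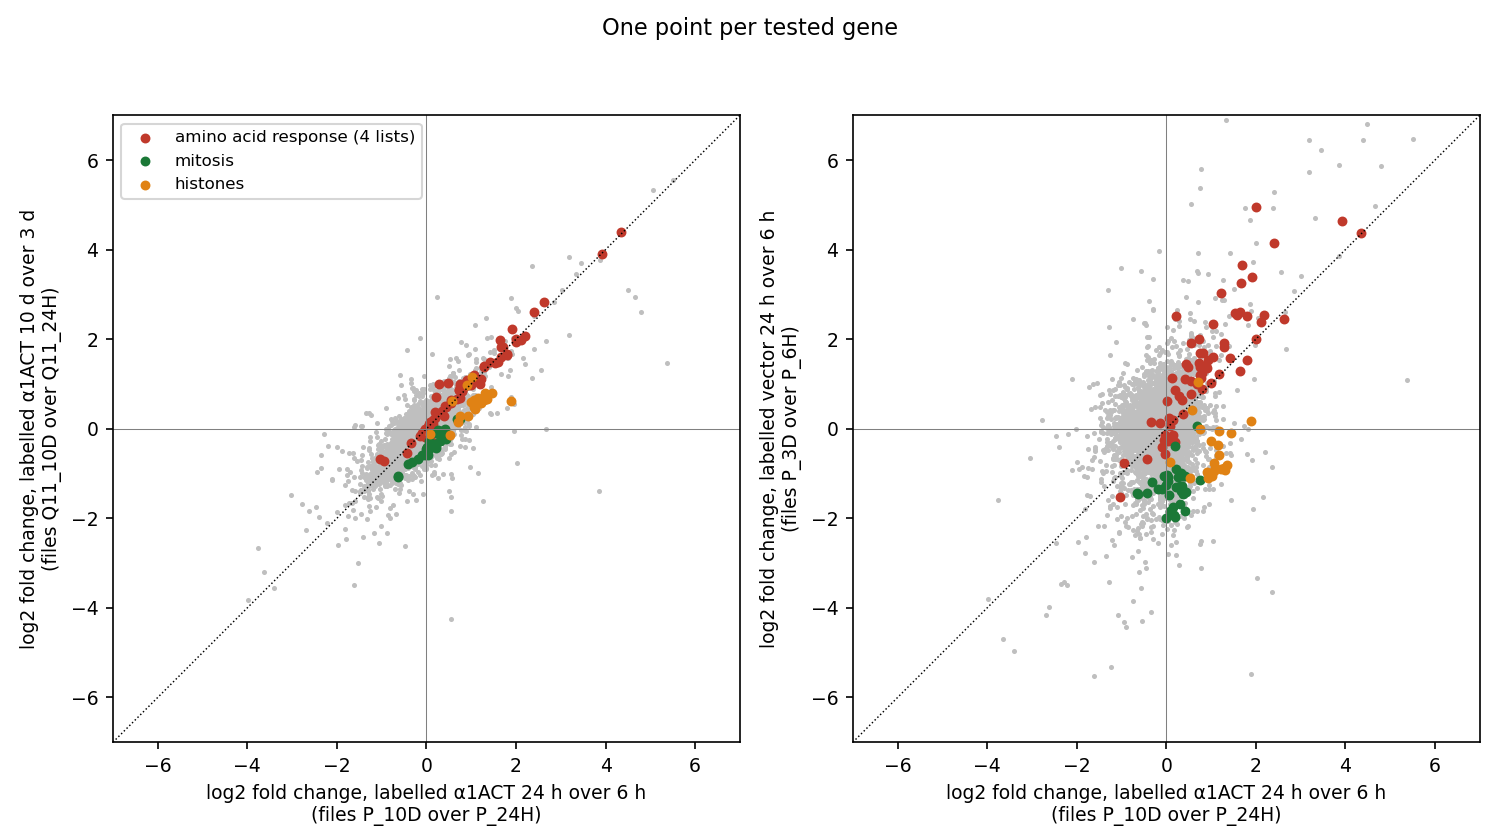
Log2 fold change of each tested gene at the labelled α1ACT 24 h over 6 h (horizontal axis) against that at the labelled α1ACT 10 d over 3 d (left panel) and at the labelled vector 24 h over 6 h (right panel), with the dotted line marking equal change. P and Q11 are the codes of the vector and α1ACT lines in sample titles and file names. Most amino acid response genes (red) lie above 0 on both vertical axes, whereas 33 of 34 mitosis genes (green) fell in the vector panel, and r across genes is 0.81 on the left and 0.36 on the right.

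The third pair of groups came from the labelled α1ACT line at 10 d and 3 d, which also shares no library with the 24 h and 6 h libraries. By the file names it sets 10 d over 24 h in the α1ACT line beside 10 d over 24 h in the vector line. There 2179 genes rose (21.8%) and 2275 fell (22.8%). Of the 4409 genes that changed at 24 h over 6 h 3269 (74.1%) changed in the same direction at 10 d over 3 d, where they made up 73.4% of the calls, and 13 changed in opposite directions. Pearson's r across genes was 0.81, again as a description. Group means of log2 CPM lay 0.215 apart between 24 h and 10 d and 0.185 between 6 h and 3 d (root mean square over tested genes), against 0.400 between 24 h and 6 h.

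For most of the single genes given here the changes were close. Chac1 rose by 3.92 ± 0.15 at 24 h over 6 h and 3.90 ± 0.15 at 10 d over 3 d, and Slc7a11 by 4.34 ± 0.27 and 4.38 ± 0.28. Their differences were 0.01 (95% interval -0.51 to 0.54) and -0.04 (-0.96 to 0.88), so differences within these intervals are not excluded. Ddit3 rose by 2.63 ± 0.10 and 2.83 ± 0.10, and Atf4 by 1.64 ± 0.10 and 1.98 ± 0.11. Among genes that fell, Lgals3 changed by -3.98 ± 0.21 and -3.82 ± 0.22, Tln1 by -0.96 ± 0.05 and -0.92 ± 0.05, and Map1s by -1.32 ± 0.06 and -1.38 ± 0.06. Hsp90b1 and Calr fell in both pairs, with log2 fold changes of -0.32 and -0.36 at 10 d over 3 d. Gata2 changed by -0.53 ± 0.06 and -0.54 ± 0.06 and Unc5b by -0.75 ± 0.10 and -0.64 ± 0.10, where the vector line had gone the other way. Histones rose in 16 of 21 members at 10 d over 3 d, with a median of 0.60. The difference between the pairs had a median of 0.57 and passed in none of the 21. In some other lists the counts differed more. Of 25 immediate early genes 10 rose and 4 fell at 10 d over 3 d, against 5 and 6 at 24 h over 6 h. Of 39 replication genes 2 rose and 21 fell, against 8 and 4. The difference between the pairs passed in no gene of these 2 lists.

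A test of the difference between these 2 changes passed in 3 of 9994 genes (0.0300%), all positive, while 985 had an unadjusted p under 0.05. All 3 encode proteins of the mitotic apparatus, and Cenpf is in the mitosis list. Cenpf, a kinetochore protein, had a difference of 0.66 ± 0.10 (edgeR adjusted p = 0.0107), Aspm, a spindle pole protein, 0.56 ± 0.10 and the kinesin Kif22 0.54 ± 0.10. Cenpf averaged 169 ± 12.0 CPM at 24 h and 145 ± 5.69 CPM at 6 h, and 126 ± 5.24 CPM at 10 d and 171 ± 15.5 CPM at 3 d (SD, n = 3 each). The count of 3 was fragile. It was 222 without 24 h replicate 3 (148 positive and 74 negative, 28 of them among the 34 mitosis genes), 119 without 10 d replicate 2 and 78 with DESeq2. It was 0 without any 1 of 4 libraries, namely 6 h replicate 2, 24 h replicate 2 and 3 d replicates 1 and 3, and 1 to 5 without any other of these 12. In the fit of all libraries the mitosis list fell in 23 of 34 members and rose in none at 10 d over 3 d, and its median difference was 0.49. The median 95% interval of a difference reached 0.24 to either side on the log2 scale before adjustment over all genes, and 33 of the 34 mitosis genes did not pass. By the labels this test compares early and late changes of the α1ACT line, and by the file names it compares the vector and α1ACT lines over the same times.

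**Figure D4:**
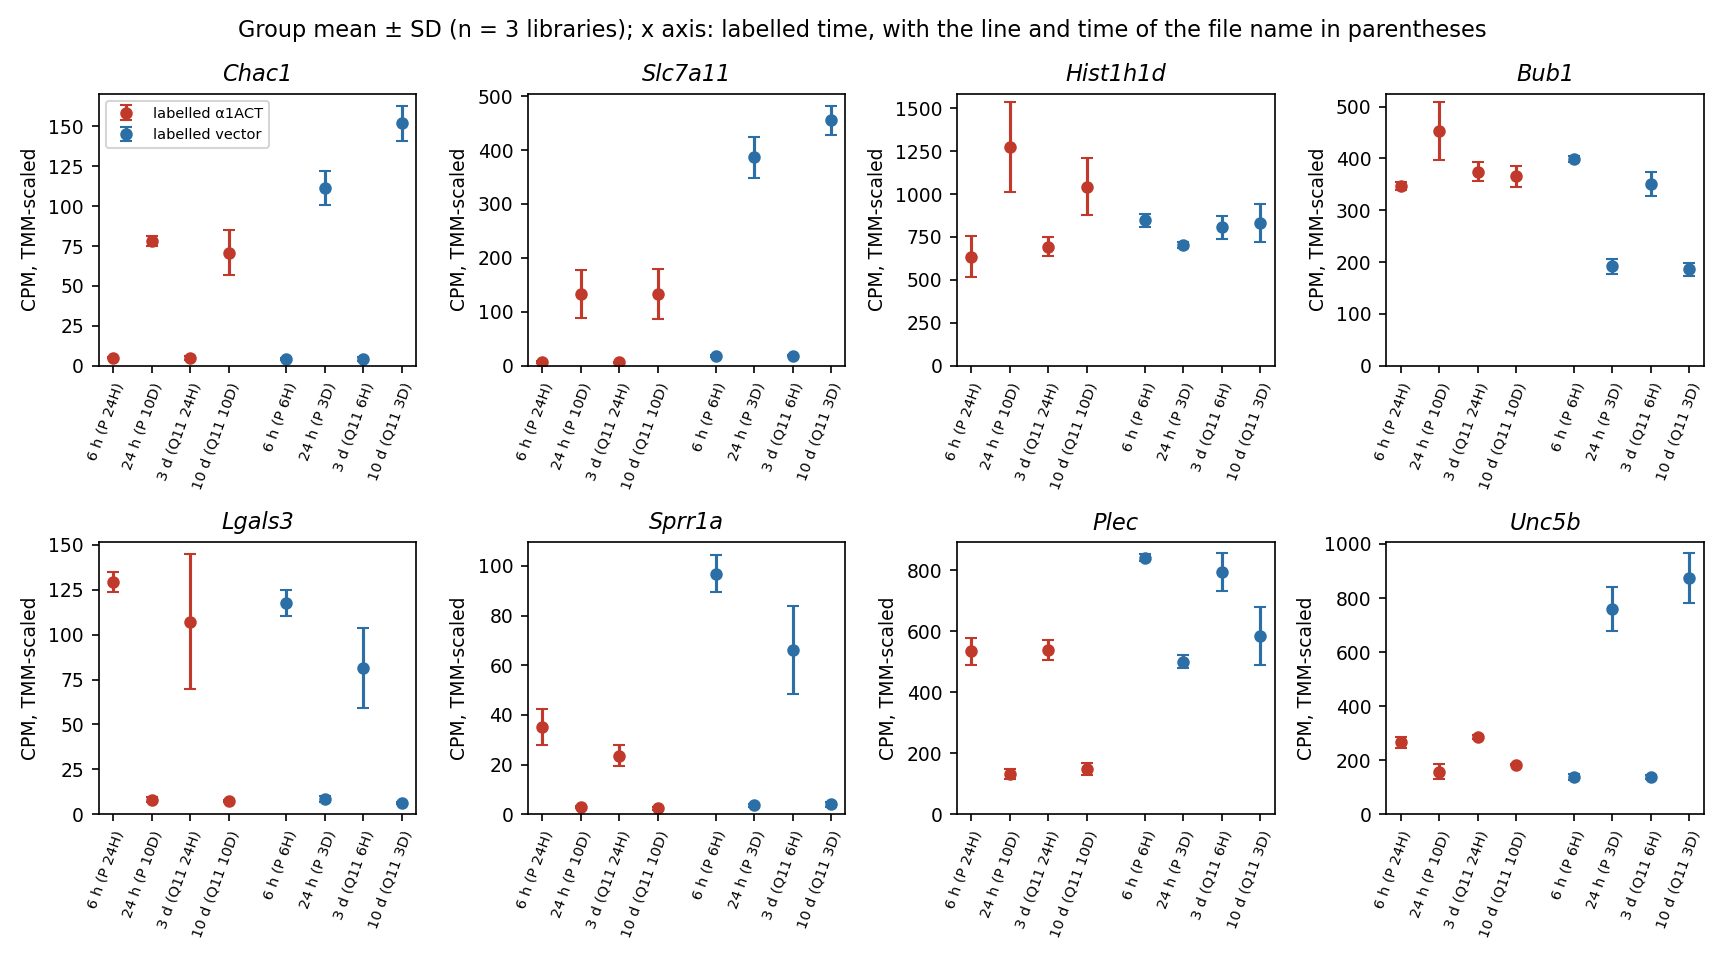
CPM after TMM scaling (vertical axis, from 0) of 8 genes in the 8 labelled groups, as mean ± SD of 3 libraries, with times in order for the α1ACT line (red) and the vector line (blue) and the line and time of the file names in parentheses (P vector, Q11 α1ACT). Chac1 and Slc7a11 are high at 24 h and 10 d in both labelled lines, Bub1 is low at 24 h and 10 d in the labelled vector line, and Unc5b is high there.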

How the data were processed

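Stranded total RNA depleted of ribosomal RNA was sequenced, per the labels' protocols. The build was rn5, and the submitters' processing notes name HTSeq 0.5.4p5, TopHat2 2.0.10, edgeR, Picard 1.117 and FastQC 0.11.2. The authors deposited raw counts per gene. Neither the annotation nor the strand setting of counting is stated, so overlapping antisense genes cannot be told apart. Rows that name no gene were left out. Of reads counted on genes, as ambiguous or outside genes, 51.6% at 24 h and 49.6% at 6 h lay outside genes. Non-unique alignments came on top, at 98.2, 93.3 and 90.9 per 100 of those reads at 24 h and 78.7, 75.7 and 89.9 at 6 h.

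Genes were fitted together over the 24 libraries and 8 labelled groups with edgeR 4.0.16 (R 4.3.3), using TMM factors of 0.981 to 1.02, filterByExpr (minimum count 10, minimum total 15), the quasi-likelihood test and Benjamini-Hochberg adjustment at 0.05. Of 17055 genes 13187 had a count and 9994 were tested. The biological coefficient of variation was 5.75% and the residual degrees of freedom 16. Genes named were the 15 largest rises and 15 largest falls with no overlap between groups and a mean of at least 2 CPM, the 5 smallest p in each direction, up to 8 called members of each list by p, the 6 largest differences from the vector line in each direction and those that differed from 10 d over 3 d. Some genes that the rule picked are not reported here. The comparison and the lists were chosen with earlier results of these data known. Alternatives were other scaling factors, no filter, the 6 libraries alone, a replicate block, DESeq2 1.42.0 and leaving out each library. RefSeq promoters are of GRCr8, so no gene coordinates of rn5 are given.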

Additional observations from a re-analysis of the deposited data

Results flagged for a closer look

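Differences between the labelled lines in the change at 24 h over 6 h passed their own edgeR test as positive in 2429 genes and negative in 2707. The 6 largest positive log2 differences were Mpzl2 (3.77), Lrrn3 (3.76), LOC691496 (3.54), Myl9 (3.53), Fosl1 (3.38) and Rgs2 (3.20). Of these Mpzl2 was near the floor in the α1ACT line, with 9 counts over the 24 h libraries and 12 over the 6 h libraries. The 6 largest negative differences were Odz4 (-4.40), Slc12a8 (-4.13), Slc16a5 (-3.63), Dysf (-3.56), Unc5b (-3.21) and Pcdh8 (-3.07). By the file names these differences lie between times of the vector line. The difference from the labelled α1ACT change at 10 d over 3 d passed in 3 genes, Cenpf (0.66), Aspm (0.56) and Kif22 (0.54), and is by the file names a difference between the lines. Groups of 3 were not tested for single libraries that stand apart.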

How the results depend on the processing

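The counts of 24 h over 6 h and of the difference between the lines stayed within 1.5 times of their values under every alternative run. Leaving out 1 library gave 3636 to 4102 called genes for 24 h over 6 h and 4790 to 5158 for the difference between the lines. Unscaled library sizes gave 1887 rises and 2491 falls at 24 h over 6 h, 43.1% of calls upward against 49.2% with TMM. The difference from 10 d over 3 d was the exception. Its count of 3 became 112 without the filter (88 positive, 24 negative, 4 at least 2-fold), 78 with DESeq2 (61 positive, 17 negative; chosen after seeing the data) and 0 to 222 when 1 library was left out (0 to 148 positive, 0 to 74 negative, 0 to 9 at least 2-fold); the cause was not tested. Same-numbered replicates of the 2 groups correlated at 0.0794, 0.291 and -0.0112 and were not taken as pairs. Differently numbered replicates correlated at -0.227 to 0.180, and all such values that involved a replicate 2 were negative. The main fit held no replicate term. The replicate block gave 4640 called genes for 24 h over 6 h (2316 up, 2324 down) and 18 for the difference from 10 d over 3 d (15 positive, 3 negative, 1 at least 2-fold). Of the lists, the block moved the rising count to 5 for matrix genes and 8 for lysosome genes and 1 for ERK feedback genes. A fit of the 6 libraries alone moved it to 1 for fatty acid synthesis, 3 for immediate early genes, 2 for calcium handling, 1 for ERK feedback and 0 for fibroblast and immune markers, and the falling count to 2 for G1 genes and 1 for tRNA synthetases. Of 299 named genes 283 were called, and 249 of these in every alternative. Most named genes were picked among called ones by size or p, so these counts do not describe all called genes. Sign turned in 4 named genes that were not called: leaving out 1 library gave -0.044 to 0.16 for Chga, -0.097 to 0.052 for Pmp22, -0.0024 to 0.10 for Aspm and -0.46 to 0.036 for Slc12a8. Depth leaves genes such as Inhbe at 6 h, with 4 counts, without a reliable fold.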
